A study of Homo sapiens with 8 samples.

Results

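OPM2 is one of 4 human multiple myeloma cell lines in the series, and 2 of the 8 arrays were made from it: 1 control culture and 1 culture with knockdown of MMSET I. These 2 arrays were chosen by the line named in their titles and compared with the 6 arrays of KMS11, KMS18 and KMS34, with treatment as a covariate. The description covers what is high or low in OPM2, not the effect of the knockdown. All 4 lines are labelled as carrying the t(4;14) translocation, so the comparison lines share it, and each line is represented by 1 culture per treatment. The groups were KMS11 control, KMS11 knockdown, KMS18 control, KMS18 knockdown, KMS34 control, KMS34 knockdown, OPM2 control and OPM2 knockdown, each with 1 array. Cultures were infected with lentivirus, and in the knockdown it carried an shRNA against MMSET I, the shorter of the main protein forms made from NSD2, a gene for a histone methyltransferase. What the control virus carried is not stated in the labels. Treatment lasted 72 h according to the series text, which mentions KMS11 alone. Expression was measured on Affymetrix Human Gene 2.0 ST arrays, on which 1 row of the value table summarises the probes of 1 transcript cluster.

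Multiple myeloma is a cancer of plasma cells, the antibody-secreting end stage of the B cell lineage. The t(4;14) translocation places NSD2, and in many tumours the receptor gene FGFR3, under the control of immunoglobulin heavy chain enhancers. Lines that share this event come from different tumours and carry further changes of their own, including gains and losses of chromosome parts.

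The values are linear intensities, and each pair of values below gives the control array first and the knockdown array second. NSD2 had intensities of 733 and 670.0 in KMS11, 679.9 and 549 in KMS18, 744 and 677 in KMS34, and 814 and 728 in OPM2. It was lower in the knockdown array in each line, and OPM2 overlapped the others. FGFR3 had 2410.3 and 2256 in KMS11, 1403 and 1326 in KMS18, 1061 and 889 in KMS34, and 1457 and 1358 in OPM2, with OPM2 between the other lines. Of 44629 rows, 15835 carried exactly 1 gene symbol and gave 14812 genes, of which 11109 passed a brightness limit at an intensity of 46.7 (the 25th percentile of gene means) and were tested. The OPM2 arrays correlated with each other at 0.992 across genes on the log2 scale and with arrays of other lines at 0.881 to 0.896. Arrays of the other lines correlated with those of different lines at 0.881 to 0.915, so the OPM2 range lay within that of the other lines (genes are not independent replicates).

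A gene was called higher or lower in OPM2 when a limma fit of line and treatment to the 8 arrays put OPM2 above, or below, each of KMS11, KMS18 and KMS34, with a Benjamini-Hochberg adjusted p under 0.05 for the largest of the 3 p-values. By this rule 444 genes (4%) were higher and 821 (7.39%) were lower. At least 2-fold beyond the nearest other line were 48 of the higher genes (0.432% of those tested) and 121 of the lower (1.09%). Both OPM2 arrays lay above the 6 others in 1423 genes (12.8%) and below them in 1693 (15.2%). Counted in the same way, KMS11 had 1108 higher and 324 lower genes, KMS18 had 318 and 849, and KMS34 had 703 and 293. With fewer lines to exceed, the OPM2 counts were 992 higher and 1173 lower without KMS11, 1134 and 1701 without KMS18, and 718 and 1093 without KMS34.

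These calls compare cultures. Their error is the spread left between the control and knockdown arrays of a line after a shared treatment effect. It therefore includes any difference between lines in the response to the knockdown. A stricter question is whether OPM2 lies outside the spread among lines, tested with limma on the 4 line means. There 0 genes (0%) passed in either direction, the smallest adjusted p was 0.315, and 613 genes had an unadjusted p under 0.05 where 555.5 would be expected with no difference at all. With the line as a random block in place of line means, 20 genes were higher and 53 lower. OPM2 is thus described here as a culture that differs from 3 others, with 1 line standing for itself. Each value is an average over a culture, so fewer cells that express a gene and less RNA per cell cannot be told apart.

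The genes that stood furthest above the other lines were RELN, IGFBPL1, MT1G and DSEL. RELN encodes reelin, a secreted glycoprotein that guides migrating neurons. Its intensities were 104 and 113 in KMS11, 64.7 and 60.4 in KMS18, 169 and 181 in KMS34, and 1812 and 2081 in OPM2. Both OPM2 arrays were an order of magnitude above the brightest of the others, at 11.1-fold the mean of KMS34, with a log2 difference to KMS34 of 3.47 ± 0.096 (SE) and an adjusted p of 7.24e-10. IGFBPL1, which encodes a protein related to the insulin-like growth factor binding proteins, had 45.7 and 46.1 in KMS11, 46.0 and 53.8 in KMS18, 57.9 and 61.4 in KMS34, and 480.0 and 272 in OPM2. The groups did not overlap, but the OPM2 knockdown array was well below the OPM2 control. The log2 difference to the nearest line, KMS34, was 2.60 ± 0.19 (adjusted p = 1.19e-06). IGFBPL1 also had the smallest unadjusted p (0.000125, adjusted 0.963) for a treatment effect that differs between OPM2 and the other lines. Of all genes tested, 0 passed for such a difference in limma, with 548 at an unadjusted p under 0.05.

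MT1G belongs to the metallothioneins, small cysteine-rich proteins that bind zinc and copper. It had 31.2 and 28.9 in KMS11, 27.3 and 34.5 in KMS18, 29.1 and 30.2 in KMS34, and 229.6 and 303 in OPM2. In the 6 arrays of the other lines it stayed below the brightness limit, so the fold against that limit is a bound, at least 5.65-fold higher in OPM2 (adjusted p = 8.38e-09). Its mean over all arrays passed the brightness filter only through the OPM2 arrays, so its p-value is not independent of being high there. Of 10 metallothioneins with a row, 6 were tested and 4 were left out by the filter. All 6 tested had a mean difference above 0 in OPM2, which for MT1G follows from that filter. MT1G was the 1 called. MT1E had 79.0 and 58.4 in KMS11, 79.0 and 62.7 in KMS18, 83.3 and 91.0 in KMS34, and 96.6 and 95.9 in OPM2; both OPM2 arrays were highest, by a small margin over KMS34 (adjusted p = 0.987). MT1X had 208 and 229 in KMS11, 115 and 134 in KMS18, 1234 and 978 in KMS34, and 708 and 660.0 in OPM2, and MT2A had 61.2 and 65.0 in KMS11, 54.5 and 73.4 in KMS18, 407 and 239 in KMS34, and 194 and 172 in OPM2. For both, KMS34 was above OPM2, and OPM2 above KMS11 and KMS18. MT1B, MT1H and MT1M were below the brightness limit on every array.

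DSEL encodes a relative of dermatan sulfate epimerase, an enzyme that reshapes chondroitin chains on proteoglycans. Its intensities were 56.4 and 47.2 in KMS11, 54.0 and 48.6 in KMS18, 62.8 and 57.3 in KMS34, and 242 and 315 in OPM2, and both OPM2 arrays were above the rest (4.60-fold over KMS34, adjusted p = 3.09e-07). A second sugar chain enzyme stood high as well: HS3ST3B1, a heparan sulfate sulfotransferase, had 73.6 and 79.5 in KMS11, 53.7 and 63.1 in KMS18, 65.7 and 62.1 in KMS34, and 278 and 326 in OPM2. Here too no array of another line came near OPM2.

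Further genes with a wide margin were NBEAL1, EDRF1, MOB1B, AFAP1L2, TEX19, AJAP1 and PLXDC2. EDRF1, named for a role in erythroid differentiation, was the brightest of these, with 182 and 189 in KMS11, 115 and 113 in KMS18, 211 and 210.3 in KMS34, and 921 and 934 in OPM2. The agreement of the OPM2 arrays was close and the other lines were all dimmer. MOB1B, an activator of LATS kinases in the Hippo pathway, had 147 and 159 in KMS11, 64.7 and 68.8 in KMS18, 80.0 and 121 in KMS34, and 587 and 764 in OPM2. NBEAL1, a neurobeachin relative, had 105 and 132 in KMS11, 68.8 and 69.9 in KMS18, 71.5 and 72.1 in KMS34, and 539 and 525 in OPM2. In both, KMS11 was the next brightest line. Over the nearest line, NBEAL1 was 4.51-fold, EDRF1 4.40-fold, MOB1B 4.39-fold, the adaptor gene AFAP1L2 3.99-fold, the germ cell gene TEX19 3.89-fold, the junction gene AJAP1 3.68-fold and the membrane protein gene PLXDC2 3.67-fold higher, and all passed the test.

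**Figure D1:**
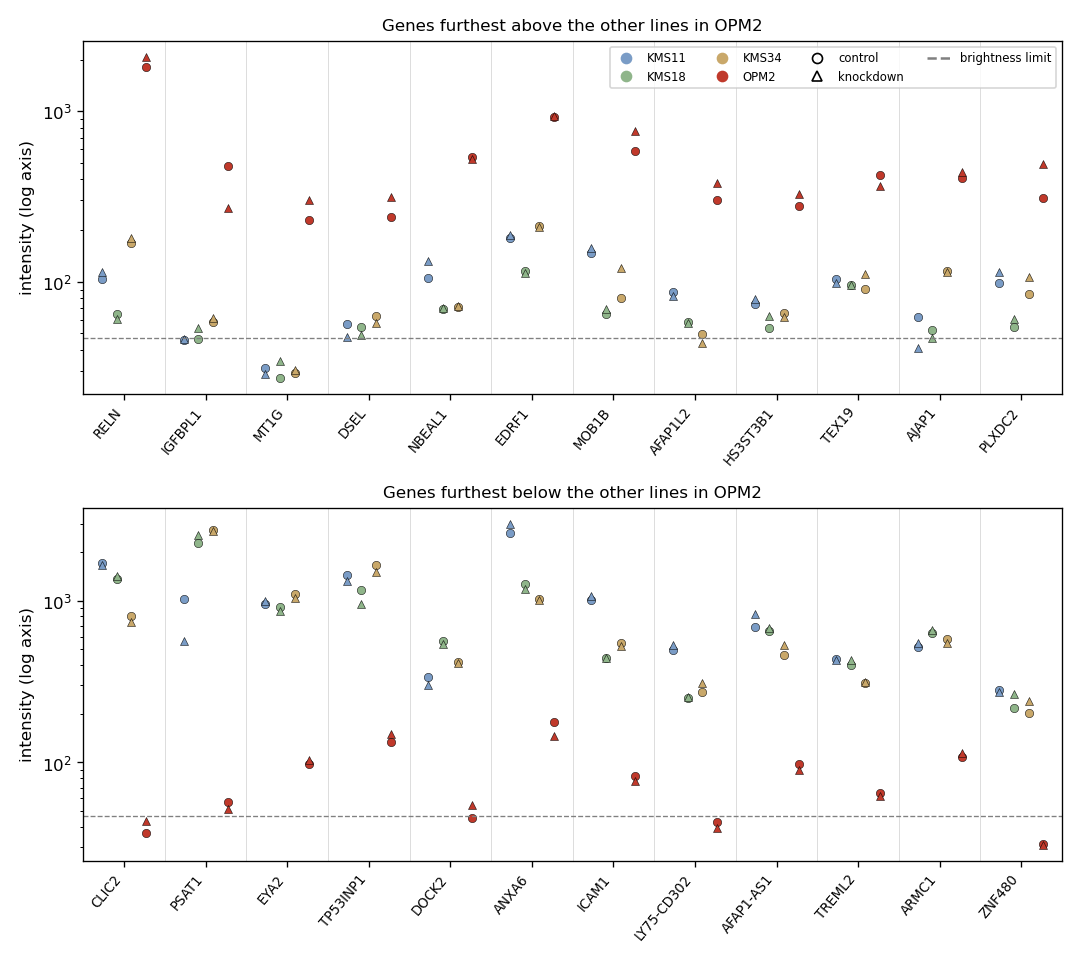
Deposited intensities (log axis) of the 12 genes furthest above and the 12 furthest below the other lines in OPM2, 1 point per array, circles for control and triangles for knockdown, with the brightness limit of 46.7 as a dashed line. The OPM2 points stand clear of the other lines in all 24 genes, and for MT1G the other 6 arrays lie under the limit.

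The lower genes reached larger margins than the higher ones. CLIC2, a member of the chloride intracellular channel family, had 1707 and 1663 in KMS11, 1372 and 1422 in KMS18, 807 and 739.8 in KMS34, and 36.7 and 43.4 in OPM2. Both OPM2 arrays were under the brightness limit, so it was at least 16.6-fold lower than KMS34 (adjusted p = 2.32e-10). CLIC2 passed the brightness filter only through the other lines, so its p-value is not independent of being low in OPM2. PSAT1, an enzyme of serine synthesis, had 1024 and 562 in KMS11, 2278 and 2536 in KMS18, 2736 and 2718 in KMS34, and 57.1 and 51.3 in OPM2, which is 14.0-fold lower in OPM2 than in KMS11 and lower still against KMS18 and KMS34. EYA2, a transcriptional coactivator with phosphatase activity, had 954 and 995 in KMS11, 917 and 869.8 in KMS18, 1108 and 1034 in KMS34, and 98.1 and 104 in OPM2. The 6 other arrays were close to each other and 8.84-fold or more above OPM2 (adjusted p = 8.41e-10).

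TP53INP1, a stress gene induced by p53, had 1435 and 1334 in KMS11, 1174 and 954 in KMS18, 1662 and 1497 in KMS34, and 134 and 149 in OPM2, and was 7.48-fold below the nearest line. DOCK2, which activates the GTPase Rac in blood cells, had 336 and 302 in KMS11, 563 and 537 in KMS18, 421 and 414 in KMS34, and 45.3 and 54.7 in OPM2. The OPM2 control array of DOCK2 was under the brightness limit. ANXA6, a calcium-dependent membrane binding protein, had 2635 and 2978 in KMS11, 1268 and 1177 in KMS18, 1019 and 1015 in KMS34, and 178 and 145 in OPM2. For all 3 genes both OPM2 arrays were below the dimmest array of the other lines.

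ICAM1, the adhesion ligand of leukocyte integrins and a target of NF-kB, had 1017 and 1075 in KMS11, 443 and 440.1 in KMS18, 548 and 523 in KMS34, and 82.5 and 76.4 in OPM2 and was 5.56-fold below KMS18 (adjusted p = 7.23e-09). The remaining genes of this set were at 5.30-fold (AFAP1-AS1, a long noncoding RNA antisense to AFAP1, with strand handling not stated), 4.91-fold (TREML2, a TREM-like receptor) and 4.76-fold (ARMC1, an armadillo repeat protein) below the nearest line. LY75-CD302, a readthrough transcript, was at least 5.39-fold lower and shares sequence with LY75 and CD302, whose signals cannot be told apart from it here. ZNF480, a zinc finger gene, was at least 4.71-fold lower, with 31.2 and 31.0 in OPM2. The 12 lower genes were thus spread over metabolism, cytoskeleton, adhesion and transcription.

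Many genes of the interferon response were lower in OPM2, and none of those tested was called higher. Interferons act through JAK kinases and STAT proteins on genes that sense viral RNA, tag proteins with ISG15 or block viral growth, and many carry a response element bound by IRF9 and its partners. Of 67 genes listed, 37 were tested and 12 more with a row were under the brightness limit. In OPM2 17 of the 37 were lower than each other line (45.9%, against 7.39% of all genes) and 0 were higher (against 4%). The median log2 difference to the mean of the other lines was -0.60, against 0.02 over all genes tested. Both OPM2 arrays lay below the 6 others in 19 of the 37. Members under the brightness limit in OPM2 were kept only through the other lines, so these counts are not independent of the filter. The list and the others below were drawn up with earlier results of these data known, and members beyond the 3 of each list and direction with the largest differences were named after their values were seen.

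Among the sensors, IFIH1, which encodes the RNA sensor MDA5, had 309.5 and 284 in KMS11, 255 and 249 in KMS18, 96.2 and 104 in KMS34, and 36.4 and 35.8 in OPM2. OPM2 was under the brightness limit and KMS34 lay between it and the brighter lines, which gave a difference of at least 2.14-fold (adjusted p = 4.06e-07). RIGI, a second RNA sensor, was lower by a smaller margin, with a log2 difference of -0.41 ± 0.093 to KMS18. Among the effectors, UBE2L6, the conjugating enzyme for ISG15, had 141 and 137 in KMS11, 184 and 171 in KMS18, 175 and 176 in KMS34, and 33.8 and 39.9 in OPM2. SP110, a nuclear body protein, had 169 and 195 in KMS11, 173 and 186 in KMS18, 131 and 129 in KMS34, and 40.1 and 45.0 in OPM2. Both were under the limit in OPM2 and well above it elsewhere. IFIH1, UBE2L6, SP110 and HERC5, described next, thus passed the brightness filter only through the other lines. Their mean differences below 0 follow from that filter, and their p-values are not independent of being low in OPM2. EIF2AK2, the kinase PKR that senses double-stranded RNA and halts translation, had 474 and 563 in KMS11, 452 and 484 in KMS18, 511 and 539.8 in KMS34, and 170.2 and 214 in OPM2 and was 2.45-fold below the nearest line.

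HERC5, a ligase for ISG15, had 390.1 and 347 in KMS11, 61.3 and 64.4 in KMS18, 68.9 and 66.2 in KMS34, and 35.2 and 45.1 in OPM2, and much of its mean difference came from KMS11. BST2, the membrane protein tetherin, had 533 and 539 in KMS11, 939.9 and 995 in KMS18, 1204 and 1242 in KMS34, and 431 and 405 in OPM2. OPM2 was below KMS11 by only 1.28-fold (adjusted p = 0.0185) and further below KMS18 and KMS34. Other effectors called lower were DTX3L, IFI35, TRIM14, SAMD9L, PLSCR1, GBP3 and TRIM21. Among the transcription factors, IRF2 had 1284 and 1249 in KMS11, 805 and 806 in KMS18, 828 and 797 in KMS34, and 408 and 367 in OPM2, and OPM2 was 2.08-fold below KMS18. IRF1 was 1.61-fold and IRF9 1.40-fold below the nearest line. Of the 11 tested genes whose symbols start with IRF, which include IRF2 binding proteins, 4 (IRF1, IRF2, IRF8 and IRF9) were lower (36.4%, against 7.39% of all genes) and 1, IRF4, was higher (9.09%, against 4%). IRF1, IRF2 and IRF9 are also among the 17 lower genes of the interferon list. The median log2 difference of the IRF symbols, -0.58, was the lowest of the symbol families with at least 8 tested members. Families with small RNA, LOC or open reading frame symbols were left out of this ranking. The highest medians were 0.33 for ARID, with 2 of 8 genes higher (25%, against 4%), and 0.25 for SRSF, with 0 of 9.

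Not every interferon gene was low. ISG15 had 109 and 102 in KMS11, 197 and 156 in KMS18, 123 and 141 in KMS34, and 155 and 156 in OPM2, with OPM2 inside the range of the other lines. MX2, an inhibitor of viral nuclear import, had 46.1 and 44.8 in KMS11, 54.1 and 55.7 in KMS18, 54.0 and 46.4 in KMS34, and 65.2 and 68.9 in OPM2; both OPM2 arrays were highest, but the call was not made (adjusted p = 0.0904). STING1, the adaptor of DNA sensing, had 212 and 229 in KMS11, 159 and 153 in KMS18, 276 and 254 in KMS34, and 226 and 289 in OPM2, again with overlap.

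**Figure D2:**
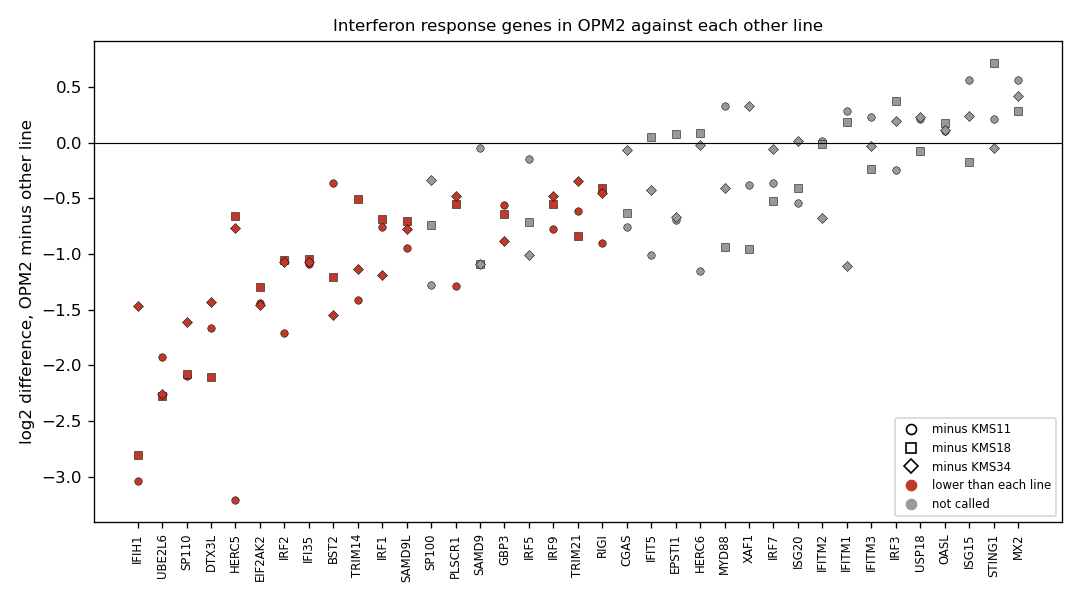
Log2 difference of OPM2 from each of KMS11, KMS18 and KMS34 for the 37 tested interferon response genes, ordered by the mean difference, 1 symbol per comparison line. The 17 genes lower than each line (red) lie below 0 for all 3 symbols, while the grey genes cross 0 or miss the threshold.

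The bases before the transcript start of IFIH1, HERC5 and BST2 are shown because they hold more than 1 copy of the interferon-stimulated response core GAAANNGAAA. They are 250 bases each from RefSeq (GRCh38.p14), 5′ to 3′ on the gene's strand, with every match of the core on either strand in capitals. Overlapping matches form longer capital runs. IFIH1 lies on the minus strand at chr2:162318685-162318934, HERC5 on the plus strand at chr4:88456869-88457118 and BST2 on the minus strand at chr19:17405631-17405880.
IFIH1: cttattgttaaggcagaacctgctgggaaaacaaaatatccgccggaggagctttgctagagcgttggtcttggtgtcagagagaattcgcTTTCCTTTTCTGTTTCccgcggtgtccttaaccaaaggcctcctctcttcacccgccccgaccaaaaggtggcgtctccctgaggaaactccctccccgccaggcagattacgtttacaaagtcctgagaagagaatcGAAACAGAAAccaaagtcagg
HERC5: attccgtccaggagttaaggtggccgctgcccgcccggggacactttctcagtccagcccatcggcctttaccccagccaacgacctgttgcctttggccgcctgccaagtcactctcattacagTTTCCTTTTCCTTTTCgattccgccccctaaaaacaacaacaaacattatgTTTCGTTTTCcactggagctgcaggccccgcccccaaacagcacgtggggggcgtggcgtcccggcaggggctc
BST2: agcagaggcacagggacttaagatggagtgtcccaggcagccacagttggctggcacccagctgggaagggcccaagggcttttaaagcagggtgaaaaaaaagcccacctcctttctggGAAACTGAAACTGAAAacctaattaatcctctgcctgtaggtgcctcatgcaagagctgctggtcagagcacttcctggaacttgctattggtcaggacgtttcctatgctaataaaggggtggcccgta

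The core was found in 839 of 27305 promoters of the table (3.07%) and in 184 of the 8530 tested genes with an entry (2.16%). Among interferon response genes with an entry, it was in 5 of the 16 that were lower in OPM2 (31.2%) and in 8 of the 12 that were not called (66.7%). These shares are a description with no test: the share among the lower genes lay above that of all genes and below that of the rest of the list. Besides the 3 shown, the lower genes with the core were TRIM14 and PLSCR1.

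Of 38 antigen presentation genes listed, only 9 had a named row, 6 of 20 for class I and 3 of 18 for class II. The shares therefore cover a small part of the list. Of these 9, all tested, 4 were lower in OPM2 (44.4%, against 7.39% of all genes) and 0 higher (against 4%). The other 5 were not called, and the median log2 difference was -0.41. TAPBP, the chaperone tapasin that loads peptides on class I molecules, had 785 and 974 in KMS11, 1151 and 1128 in KMS18, 1075 and 1075 in KMS34, and 268 and 347 in OPM2, and OPM2 was 2.87-fold below the nearest line (adjusted p = 1.46e-06). CTSS, the lysosomal protease cathepsin S, had 357 and 377 in KMS11, 566 and 644 in KMS18, 95.9 and 99.1 in KMS34, and 39.9 and 36.7 in OPM2. KMS18 and KMS11 were bright, KMS34 dim and OPM2 under the limit. CTSS thus passed the brightness filter only through the other lines, and its mean difference below 0 follows from that. The trimming enzyme gene ERAP1 was 1.63-fold and the chaperone gene CALR 1.27-fold lower. B2M, the shared light chain of class I molecules, had 2138 and 2145 in KMS11, 1625 and 1686 in KMS18, 2210.1 and 2090.5 in KMS34, and 1459 and 1497 in OPM2; both OPM2 arrays were lowest, but it was not called (adjusted p = 0.426).

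Of 58 listed genes of the NF-kB and TNF receptor pathway, 27 had a named row, including only 1 of 14 receptors. Of the 23 tested, 6 were lower (26.1%, against 7.39% of all genes), 0 higher (against 4%) and 17 not called, with a median log2 difference of -0.56. Besides ICAM1, the targets included RGS1, a regulator of G protein signals, with 284 and 349 in KMS11, 58.5 and 59.5 in KMS18, 96.2 and 90.4 in KMS34, and 47.7 and 33.2 in OPM2. CD70, a ligand of the TNF family, had 552 and 533 in KMS11, 272 and 254 in KMS18, 1062 and 913 in KMS34, and 134 and 119 in OPM2. OPM2 was lowest in both, though KMS18 came close for RGS1. Among the subunits, NFKB2, the precursor of the non-canonical pathway, had 488 and 544 in KMS11, 312 and 302 in KMS18, 324 and 293 in KMS34, and 153 and 132 in OPM2 and was 2.16-fold below KMS18 (adjusted p = 1.05e-05). The negative regulators TNIP1 and CYLD were also lower, by 1.56-fold and 1.43-fold against KMS34. A subunit, a ligand, targets and inhibitors of the pathway were thus low side by side, while 5 of the 6 subunits tested were not called. RGS1 missed the threshold with no filter on dim genes (adjusted p = 0.0688).

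Of the 5 tested genes of serine synthesis, PSAT1 and PHGDH were lower (40%, against 7.39% of all genes), SHMT1 was higher (20%, against 4%) and 2 were not called. The pathway makes serine from a glycolytic intermediate through PHGDH, PSAT1 and PSPH, and SHMT1 and SHMT2 pass its carbon on to folate. PSAT1 is described above. PHGDH, the first enzyme, had 214 and 119.6 in KMS11, 709.5 and 887 in KMS18, 1144 and 1163 in KMS34, and 103 and 94.4 in OPM2. It was far below KMS18 and KMS34 but only 1.62-fold below KMS11, whose knockdown array came near it (adjusted p = 0.0348, with the call lost at 0.106 with no filter on dim genes and at 0.169 with trend and robust moderation). PSPH, the last enzyme, had 458 and 271 in KMS11, 393 and 395 in KMS18, 539 and 535 in KMS34, and 274 and 257 in OPM2; OPM2 overlapped KMS11 and it was not called (adjusted p = 0.143). SHMT1 went the other way, with 215 and 169 in KMS11, 109.7 and 105 in KMS18, 179 and 172 in KMS34, and 314 and 309.8 in OPM2, and OPM2 was highest (1.64-fold over KMS11, adjusted p = 0.000369).

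In the wider list of amino acid and one-carbon synthesis, 4 of 17 tested genes were lower (23.5%, against 7.39%) and 1 higher (5.88%, against 4%), with a median log2 difference of -0.67. GLUL, glutamine synthetase, had 221 and 256 in KMS11, 129.6 and 112 in KMS18, 149.6 and 124 in KMS34, and 68.8 and 63.0 in OPM2. CBS, which turns homocysteine into cystathionine, had 157 and 113 in KMS11, 195 and 207 in KMS18, 276 and 265 in KMS34, and 116 and 68.8 in OPM2; it passed the test, although the OPM2 control and the KMS11 knockdown arrays overlapped. ASS1, the argininosuccinate synthase, had 191 and 155 in KMS11, 1690.4 and 1811 in KMS18, 3158 and 3068 in KMS34, and 231 and 248 in OPM2, with OPM2 and KMS11 low together. ASNS, asparagine synthetase, had 369.9 and 210.1 in KMS11, 418 and 386 in KMS18, 951 and 848 in KMS34, and 277 and 260.0 in OPM2, where the KMS11 knockdown was the lowest array. In the KMS11 knockdown array PSAT1, PHGDH, PSPH and ASNS were all dimmer than in the KMS11 control, and the part of this in the calls against KMS11 was not tested.

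**Figure D3:**
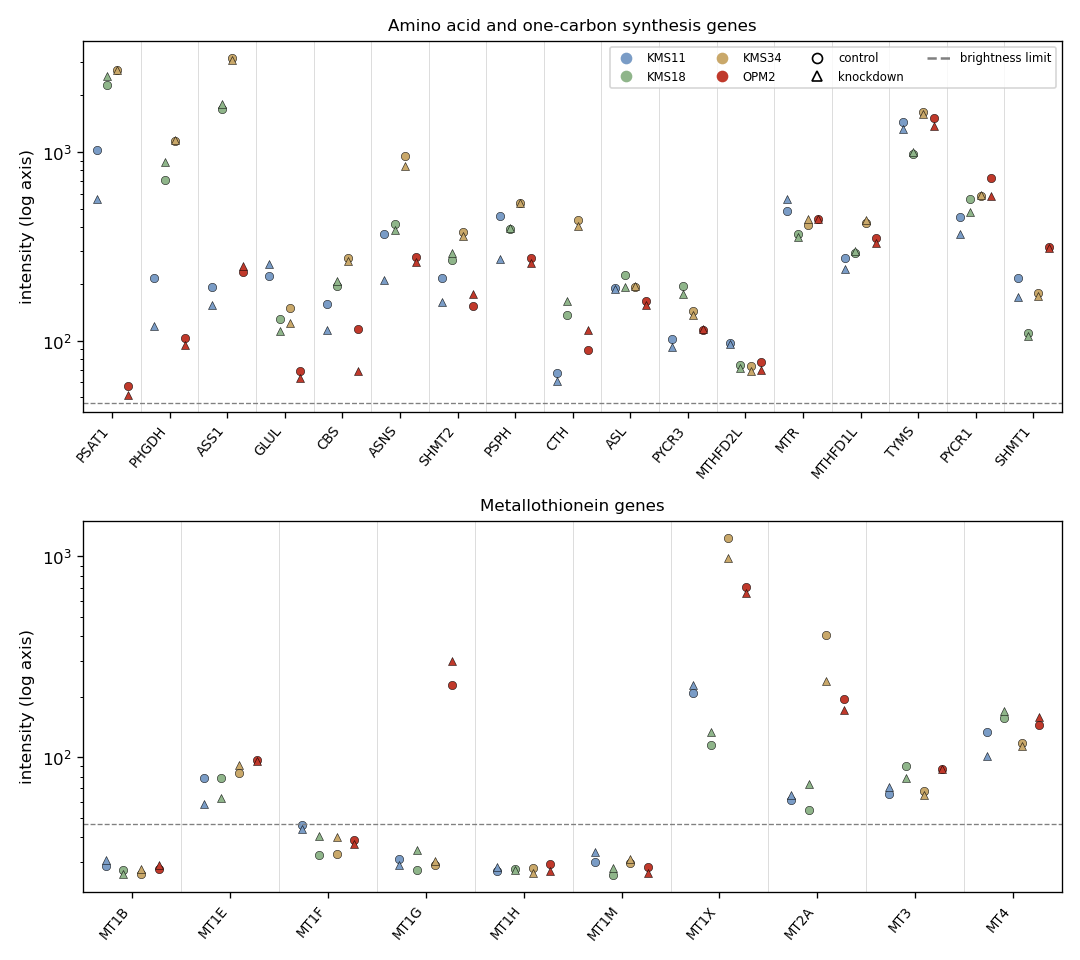
Deposited intensities (log axis) of the 17 tested amino acid and one-carbon synthesis genes, ordered by the OPM2 difference, and of the 10 metallothionein genes with a named row, 1 point per array, circles for control and triangles for knockdown. PSAT1 at the left shows OPM2 near the dashed brightness limit, SHMT1 at the right shows OPM2 highest, and MT1G is the metallothionein bright in OPM2 alone.

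Genes of plasma cell identity were called in both directions. Of 19 tested, 4 were higher (21.1%, against 4% of all genes) and 4 lower (21.1%, against 7.39%). IRF4, the transcription factor on which myeloma cells depend, had 2639.8 and 2254 in KMS11, 2642 and 2772 in KMS18, 3186 and 3032 in KMS34, and 4442 and 4673 in OPM2, and XBP1, the factor of the secretory programme, had 2256 and 2118 in KMS11, 1266 and 1292 in KMS18, 1779.7 and 1625 in KMS34, and 2766 and 2656 in OPM2. OPM2 was highest in both, by 1.47-fold and 1.24-fold over the nearest line (adjusted p = 0.00231 and 0.0396). XBP1 was no longer called with arrays centred on their medians (adjusted p = 0.225). Of the surface proteins, SLAMF7, the target of elotuzumab, had 852 and 855 in KMS11, 1015 and 1187 in KMS18, 989.7 and 912 in KMS34, and 1498 and 1689.8 in OPM2, and CD48, a receptor of the same family, had 967 and 629 in KMS11, 1680.2 and 1427 in KMS18, 1149.8 and 1038 in KMS34, and 2545 and 1757 in OPM2. CD48 was dimmer in the knockdown array of every line, and with no filter on dim genes it missed the threshold (adjusted p = 0.0536).

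Of the 4 lower members, 3 belong to secretion. MZB1, an endoplasmic reticulum protein that aids antibody assembly, had 1419.5 and 1373 in KMS11, 1785 and 1671 in KMS18, 2394 and 2241 in KMS34, and 785 and 778 in OPM2, so OPM2 was 1.79-fold below KMS11 (adjusted p = 2.76e-05). SEC11C, a signal peptidase subunit, had 1336 and 1116 in KMS11, 1329.5 and 1358 in KMS18, 1085 and 1050.5 in KMS34, and 627 and 555 in OPM2. DERL3, a factor of protein disposal from the endoplasmic reticulum, was 1.30-fold below KMS34. ANKRD37, listed here but known as a gene of the oxygen response, had 228 and 223 in KMS11, 413 and 379 in KMS18, 99.6 and 102 in KMS34, and 59.8 and 62.7 in OPM2. The defining plasma cell marker SDC1 (CD138) was bright in all lines, with 894 and 1071 in KMS11, 914 and 979.6 in KMS18, 844 and 869 in KMS34, and 1052 and 1112 in OPM2, and not called. CD38 had 50.6 and 83.2 in KMS11, 416 and 365 in KMS18, 168 and 168 in KMS34, and 251 and 278 in OPM2; it was dim in KMS11 and OPM2 lay between KMS34 and KMS18.

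The endoplasmic reticulum membrane complex, which inserts membrane proteins, had the second lowest median of the symbol families. Of its 9 tested EMC genes 5 (EMC1, EMC2, EMC3, EMC4 and EMC7) were lower (55.6%, against 7.39% of all genes) and 0 higher (against 4%), with a median log2 difference of -0.44. In the unfolded protein response list, XBP1 was higher, CALR was lower (4.55% each way, against 4% higher and 7.39% lower of all genes) and the other 20 of 22 were not called.

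Some genes known from the nervous system were higher in OPM2. Of 34 tested neuronal and axon guidance genes 5 were higher (14.7%, against 4%) and 0 lower (against 7.39%), with a median log2 difference of 0.13. The other 29 were not called, and 11 of the 34 had a mean difference below 0. NCAM1 (CD56), a cell adhesion molecule that myeloma cells often carry, had 51.4 and 55.8 in KMS11, 73.4 and 63.6 in KMS18, 136 and 164 in KMS34, and 469.8 and 455 in OPM2. OPM2 was 3.10-fold above KMS34, the next brightest line (adjusted p = 8.5e-07). The receptor genes EPHB1 and PLXNA2 and the ligand genes EFNB1 and EFNB2 were higher by 1.66-, 1.56-, 1.40- and 1.41-fold, all from low intensities. Of 13 reelin pathway genes listed, 6 had a named row, including only 1 of 4 receptors. Of the 5 tested, RELN was higher (20%, against 4%), 1 was lower (20%, against 7.39%) and 3 were not called. The receptor gene VLDLR had 151 and 194 in KMS11, 53.7 and 60.9 in KMS18, 296 and 315 in KMS34, and 46.1 and 52.6 in OPM2. OPM2 was dim for it and KMS34 brightest, but KMS18 was nearly as dim and VLDLR was not called. RAPGEF1, an exchange factor downstream of the reelin adaptors, was 1.83-fold lower in OPM2 (adjusted p = 8.83e-05).

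In the insulin-like growth factor axis, 2 of 17 tested genes were higher (IGFBPL1 and the adaptor gene SHC1, 11.8%, against 4% of all genes) and 1 lower (5.88%, against 7.39%). SHC1 had 1307 and 1428 in KMS11, 903 and 836 in KMS18, 1539 and 1467 in KMS34, and 2757 and 3096 in OPM2, with OPM2 1.94-fold above KMS34. IGF1, the ligand, had 433 and 497 in KMS11, 89.2 and 89.1 in KMS18, 429 and 442 in KMS34, and 61.6 and 78.2 in OPM2. KMS11 and KMS34 were bright for IGF1, while KMS18 was nearly as dim as OPM2, and the call was lost with no filter on dim genes (adjusted p = 0.0588). The receptor gene IGF1R was not called, with log2 differences of -0.06, 0.07 and 0.03 to KMS11, KMS18 and KMS34 (SE 0.10 each).

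Of 44 tested glycosaminoglycan genes 3 were higher and 4 lower. With DSEL and HS3ST3B1, the core protein gene SDC3 (syndecan-3) was higher, by 1.51-fold. The lower ones were SRGN, the granule proteoglycan serglycin, the chondroitin sulfotransferase genes CHST11 and CHST7, and the heparan enzyme gene NDST1. SRGN had 2635 and 2579.8 in KMS11, 2148 and 2183 in KMS18, 6148 and 5935 in KMS34, and 1361 and 1339 in OPM2, with KMS34 far above the rest and OPM2 lowest. CHST11 had 210.4 and 206 in KMS11, 154 and 113 in KMS18, 255 and 224 in KMS34, and 84.6 and 74.3 in OPM2, and OPM2 was 1.67-fold below KMS18. The counts of this list, 6.82% higher and 9.09% lower, were near those of all genes.

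Of 87 adhesion genes listed, 37 had a named row, and 0 of the 22 integrins did. Among the 27 tested, 7 were lower (25.9%, against 7.39% of all genes), 3 higher (11.1%, against 4%) and 17 not called. CD47, the signal that restrains phagocytes, had 968 and 931 in KMS11, 722 and 742 in KMS18, 1178 and 1133 in KMS34, and 288 and 312 in OPM2 and was 2.44-fold below KMS18. The others lower were ICAM1, ICAM2, SELPLG, ALCAM, JAM3 and DSG2, and the higher ones NCAM1, CNTN5 and PCDH9. DSG2, a desmosomal cadherin listed with the targets of t(4;14), had 539.8 and 593 in KMS11, 559.7 and 531 in KMS18, 505 and 527 in KMS34, and 209.9 and 194 in OPM2. OPM2 was 2.56-fold below the nearest line, with little spread among the other 6 arrays.

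Of 21 tested cell death genes 2 were higher (9.52%, against 4% of all genes), 2 lower (9.52%, against 7.39%) and 17 not called. BCL2L1, which encodes the survival protein BCL-XL, had 1022 and 996 in KMS11, 426 and 417 in KMS18, 718 and 645 in KMS34, and 123 and 149.8 in OPM2. OPM2 was 3.11-fold below KMS18 and further below KMS34 and KMS11 (adjusted p = 6.27e-07). CFLAR, the caspase-8 inhibitor FLIP, had 278 and 325 in KMS11, 209.7 and 223 in KMS18, 276 and 269 in KMS34, and 86.1 and 89.3 in OPM2 and was also lowest in OPM2. BAK1, a pore-forming effector, had 502 and 537 in KMS11, 276 and 253 in KMS18, 325 and 302 in KMS34, and 696 and 800.4 in OPM2, and APAF1, the apoptosome scaffold, was 1.39-fold higher. MCL1 had 987 and 871 in KMS11, 766 and 759 in KMS18, 779 and 702 in KMS34, and 714 and 822 in OPM2, with no separation of OPM2.

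Of 39 tested genes of FGFR and MAP kinase signalling 3 were higher (7.69%, against 4% of all genes) and 3 lower (7.69%, near the 7.39% of all genes). DUSP4 and DUSP6, phosphatases that damp MAP kinases and are induced by them, were both higher. DUSP4 had 184 and 209.5 in KMS11, 78.4 and 86.6 in KMS18, 81.7 and 83.1 in KMS34, and 709.8 and 707 in OPM2 (3.61-fold over KMS11, adjusted p = 6.28e-08), and DUSP6 had 85.0 and 97.0 in KMS11, 130.2 and 127 in KMS18, 71.3 and 76.7 in KMS34, and 180.0 and 227 in OPM2. FGFRL1, a receptor without a kinase domain, was 1.27-fold higher. FGF2, a ligand, had 304 and 372 in KMS11, 135 and 167 in KMS18, 68.3 and 82.5 in KMS34, and 47.4 and 52.9 in OPM2 and was lowest in OPM2, as were FGF13 and the phosphatase gene DUSP10. The list median was -0.01.

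In the cell cycle list of 18 tested genes 2 were higher (11.1%, against 4% of all genes), RB1 and its relative RBL1, and 3 lower (16.7%, against 7.39%). RB1, which holds back E2F factors, had 568 and 527 in KMS11, 585 and 506 in KMS18, 425 and 364 in KMS34, and 1053 and 1086 in OPM2, and OPM2 was 1.95-fold over KMS11 (adjusted p = 1.9e-05). RBL1 was 1.28-fold higher. The lower ones were E2F1, CDK14 and the cyclin gene CCNE2. E2F1 had 803 and 607 in KMS11, 319.9 and 306 in KMS18, 479 and 420.1 in KMS34, and 248 and 220.4 in OPM2, and CCNE2 had 484 and 415 in KMS11, 262 and 264 in KMS18, 119 and 103 in KMS34, and 78.8 and 72.4 in OPM2. MYC had 1728 and 1757 in KMS11, 1386 and 1439 in KMS18, 2299.5 and 2148 in KMS34, and 1066 and 966 in OPM2, with OPM2 1.39-fold below KMS18 (adjusted p = 0.00371). In the p53 list 3 of 19 tested genes were lower, TP53INP1, EDA2R and RRM2B (15.8%, against 7.39% of all genes), and 0 higher (against 4%).

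Of 12 tested hypoxia genes, which respond to low oxygen, 4 were lower (BNIP3, ANKRD37, KDM3A and VEGFA; 33.3%, against 7.39% of all genes), 0 higher (against 4%) and 8 not called. Their median log2 difference was -0.75, while 0 of 9 glycolysis genes were called in either direction. BNIP3, a mitochondrial protein that triggers mitophagy, had 586 and 564 in KMS11, 175 and 192 in KMS18, 126 and 117 in KMS34, and 46.4 and 56.2 in OPM2. It was graded over the lines, with KMS11 brightest and OPM2 close to the brightness limit. Fatty acid elongase genes were divided. ELOVL5 had 265 and 293 in KMS11, 314 and 350.0 in KMS18, 368 and 368 in KMS34, and 99.3 and 104 in OPM2 and was 2.75-fold lower (adjusted p = 3.37e-07). ELOVL6 and ELOVL4 were lower too, the latter from a dim level in KMS18, and ELOVL7 was 1.70-fold higher. Across cholesterol and fatty acid synthesis, 6 of 33 tested genes were lower (18.2%, against 7.39% of all genes) and 2 higher (6.06%, against 4%), with a median of -0.13.

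Among 18 tested drug target and resistance genes, SLAMF7 and CD48 were higher (11.1%, against 4% of all genes), and CRBN, KLF9, CD70 and ICAM1 lower (22.2%, against 7.39%). CRBN, the ligase subunit bound by lenalidomide, had 226 and 237 in KMS11, 266 and 281 in KMS18, 269.6 and 274 in KMS34, and 131 and 155 in OPM2. OPM2 was 1.63-fold below KMS11 (adjusted p = 0.000206). KLF9, a gene induced by glucocorticoids, had 378 and 270.0 in KMS11, 241 and 183 in KMS18, 375 and 277 in KMS34, and 110.2 and 89.8 in OPM2; it was dimmer in the knockdown array of every line and lowest in OPM2. In the list of chemokines, cytokines and receptors, 5 of 52 tested genes were lower (9.62%, against 7.39%). LIFR and CX3CR1 were higher (3.85%, against 4%), and both shares were near those of all genes. Of the lower ones, JAK3, a kinase of cytokine receptors, had 306 and 329 in KMS11, 210.2 and 205 in KMS18, 280.2 and 246 in KMS34, and 66.6 and 59.6 in OPM2 and was 3.29-fold lower.

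Of 17 tested T and NK cell markers, NCAM1 and GATA3 were higher (11.8%, against 4% of all genes) and 0 lower (against 7.39%). GATA3 had 104 and 108 in KMS11, 84.0 and 113 in KMS18, 82.5 and 88.6 in KMS34, and 134 and 168 in OPM2. The line means summed over the 19 markers with a row were 5046, 2869.7, 2239 and 3290.5 in KMS11, KMS18, KMS34 and OPM2. Myeloid markers (6 tested), stromal, endothelial and epithelial markers (6) and erythroid and megakaryocyte markers (5) had 0 calls in either direction. The sums over their rows, in the same order of lines, were 1229, 1396, 1258 and 1196 for the myeloid list. For the stromal, endothelial and epithelial list they were 1179.6, 2914.8, 745.6 and 777.9, with KMS18 far above the rest. The erythroid and megakaryocyte list had 558.9, 592.8, 568.8 and 631.1. The monocyte genes CD14 and LYZ were below the brightness limit in every line. Of 30 tested B cell genes BLNK and FOXO1 were higher (6.67%, against 4% of all genes) and CR2 and IRF8 lower (6.67%, against 7.39%). Of 66 cancer-testis antigens listed, 25 had a named row, and 0 of the 17 MAGE genes did. There were 0 calls among the 11 tested, and 14 more with a row were under the brightness limit. The genes without a row could not be assessed. GAGE13, a gene of the GAGE family of such antigens that is not on the list, was called higher, with 46.4 and 52.0 in KMS11, 89.9 and 77.8 in KMS18, 56.5 and 53.3 in KMS34, and 117 and 108 in OPM2 (1.34-fold over KMS18, adjusted p = 0.0157). GAGE genes are near-identical copies, so its signal may be shared with others.

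The calls were unevenly spread over the chromosomes, a grouping chosen after the values were seen. Chromosomes were taken by symbol from RefSeq (GRCh38.p14), which placed 11104 of the tested genes. On chromosome 3, 125 of 564 genes were lower in OPM2 (22.2%, against 7.39% overall) and 9 higher (1.6%), with median log2 differences of -0.15, -0.21 and -0.35 to KMS11, KMS18 and KMS34. On chromosome 8, 71 of 387 were lower (18.3%), and on chromosome 7, 64 of 532 (12%). Chromosome 5 had nearly the same share as chromosome 7, with 54 of 453 lower (11.9%), and chromosome 9 had 46 of 455 (10.1%). Chromosomes 3, 7 and 8 held 260 of the lower genes, 31.7% of them, and 13.3% of the genes tested. Chromosome 13 ran the other way, with 38 of 192 genes higher (19.8%, against 4%) and 5 lower. Its median log2 difference was 0.26 to KMS11, 0.06 to KMS18 and 0.21 to KMS34, so its separation from KMS18 was slight. RB1 lies on chromosome 13. DNA copy number was not analysed here, and its part in these calls was not tested.

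**Figure D4:**
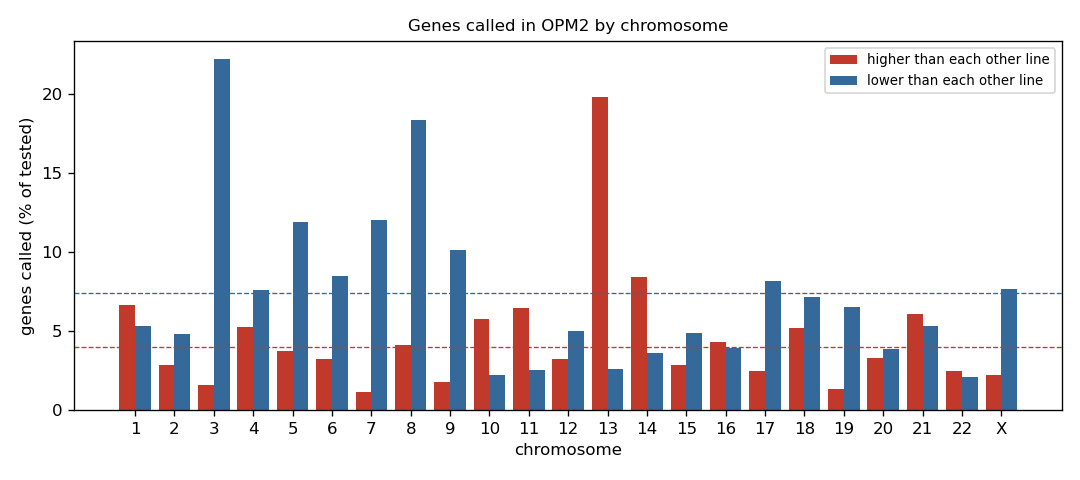
Share of tested genes called higher (red) or lower (blue) in OPM2 than in each other line, by chromosome, with the shares over all genes as dashed lines (4% and 7.39%). Chromosomes 3 and 8 have the highest share of lower genes and chromosome 13 the highest share of higher genes.

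Part of the lower genes lay in stretches of neighbours. The median difference over runs of 15 neighbouring tested genes was under -0.5 in 227 of 10782 runs in OPM2 and over 0.5 in 7. The same counts were 13 and 205 in KMS11, 203 and 40 in KMS18, and 10 and 127 in KMS34. The lowest 3 runs that do not overlap were all on chromosome 8. They ran from CA13 to OTUD6B (median -1.05, 7 of 15 genes lower), from GEM to PTDSS1 (-0.996, 10 lower) and from LAPTM4B to NCALD (-0.81, 8 lower). In the first, NBN, a sensor of DNA breaks, had 412 and 405 in KMS11, 467 and 478 in KMS18, 422 and 428 in KMS34, and 154 and 139.7 in OPM2, and WWP1, a ubiquitin ligase, had 449 and 469 in KMS11, 388 and 434 in KMS18, 635 and 556 in KMS34, and 176 and 174 in OPM2. The second holds TP53INP1 and CCNE2, and the third SPAG1, with 299 and 275 in KMS11, 174 and 180.5 in KMS18, 150.1 and 152 in KMS34, and 59.5 and 61.7 in OPM2. KMS34 had its own highest run, from ZBTB10 to MMP16 (median 0.89), over part of the first. KMS11 had its 3 lowest runs on chromosome 13, the lowest from NBEA to ELF1 (median -0.59). Of that run NBEA, FOXO1 and SLC25A15 were called higher in OPM2, and 38 of 192 genes were on the whole chromosome.

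Joining nearby runs with a median under -0.4 gave 21 lower stretches, and joining those over 0.4 gave 13 higher ones. The lower stretches held 242 of the 821 lower genes (29.5%) and 750 of the genes tested (6.75%), so most lower genes lay outside them. The longest ran from RDH10 to DENND3 on chromosome 8, over 135 tested genes, of which 56 (41.5%) were lower and 0 higher. Its median log2 difference was -0.49 to KMS11, -0.46 to KMS18 and -0.55 to KMS34, so OPM2 was lower than each. MYC lies within the same stretch of neighbours. On chromosome 7, the stretch from METTL27 to LAMTOR4 had 33 of 95 genes lower (34.7%). On chromosome 3, 34 of 86 were lower between MIR1324 and KLF15 (39.5%) and 23 of 73 between U2SURP and CHRD (31.5%). The runs that stood highest were MGST3 to SFT2D2 (0.54), LBR to CDC42BPA (0.53) and PRMT3 to QSER1 (0.53), with 3, 5 and 5 genes called higher. The windows were placed on the values they describe, so their medians carry no test.

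**Figure D5:**
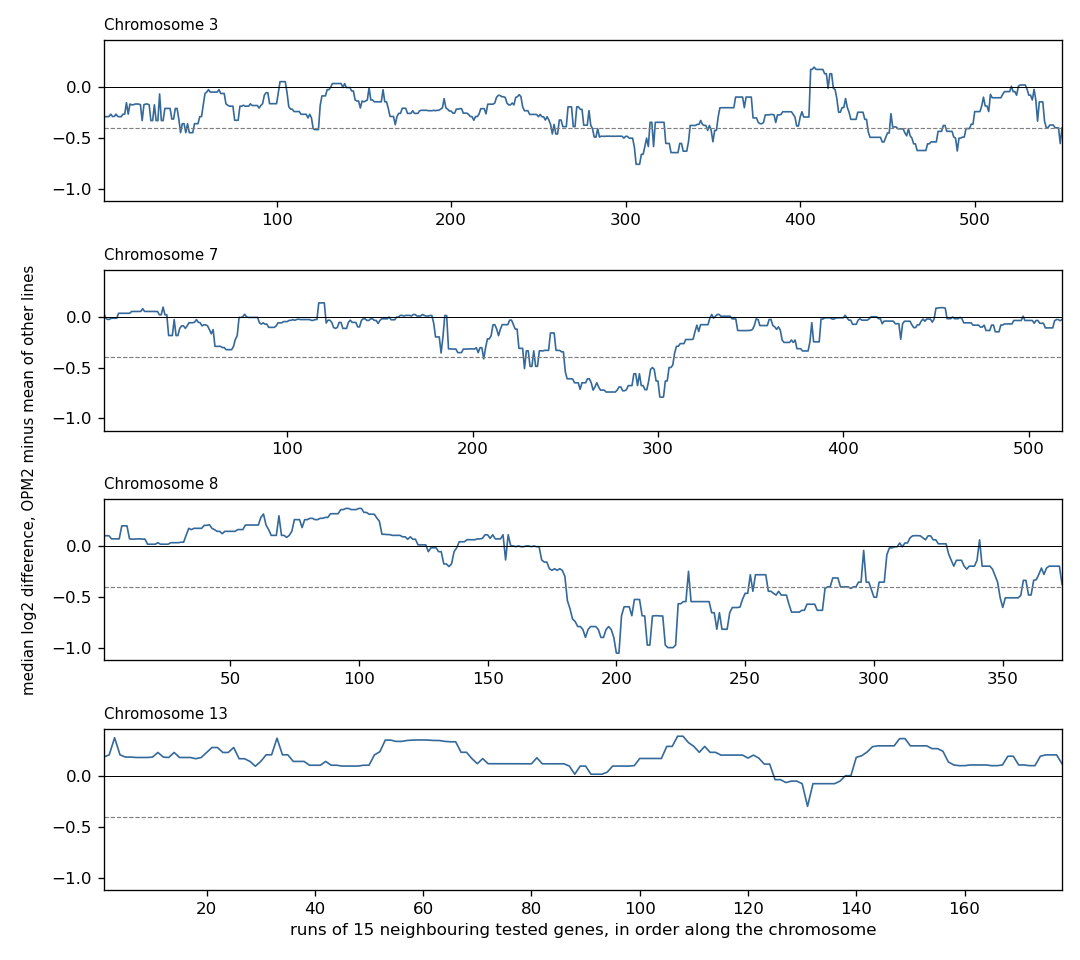
Median log2 difference of OPM2 from the mean of the other lines over runs of 15 neighbouring tested genes, in gene order along chromosomes 3, 7, 8 and 13, with a dashed line at -0.4. On chromosome 8 the line drops to -1.05 and stays mostly below 0 from there on, on chromosome 7 the lowest runs lie near the middle, and on chromosome 13 most runs lie above 0.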

How the data were processed

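RNA of 4 control and 4 MMSET I knockdown cultures was hybridised to 1-colour Affymetrix arrays. The authors deposited linear intensity values, normalized by steps not given in the sources used here; the array build was not given either. Per the series text, GeneSpring was used. The quartiles of the arrays were nearly equal (medians of 49.3 to 53.5), so a shift of all genes in one direction would not show. Tests had been planned on a log2 scale, and the linear intensities were therefore converted to log2. Rows were named from the platform annotation, and the brightest row stood for a gene. Raw probe signals were not used, and the number of arrays limits the precision. Each line had 1 culture per treatment, with no replicate of the same treatment. The p-values thus measure the spread left between these arrays once line and treatment are fitted. That spread includes unlike responses of the lines to the knockdown.

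Genes with a mean log2 under 5.54, the 25th percentile, were left out (3703 genes). A tested gene with an OPM2 mean under that limit passed only through the other lines. Its mean difference below 0 follows from the filter, and its p-value is not independent of it. Tests used lmFit and eBayes in limma 3.58.1 (R 4.3.3), with Benjamini-Hochberg adjustment over all 11109 genes, and were tested on simulated data. A fold is taken to the nearest other line, with values under the brightness limit raised to it, and is written "at least" where the lower side was under it. The members and lists were chosen with earlier results of these data known, and no list was tested. Shares of a list are of its tested members, and in several lists many genes had no named row. Named were up to 12 called genes per direction by margin, the genes RELN, MT1G, IGFBPL1, DSEL, NSD2, FGFR3 and GLO1, up to 3 members per list and direction by the size of the difference, 2 per direction of the symbol families described and the members of the runs described. GLO1 was not called (adjusted p = 0.238). Small RNA, LOC and open reading frame symbols (588 tested) were counted, not named, except where one bounds a stretch. The metallothionein sequences planned for display are not shown. Alternatives covered scaling, filters on dim genes, rows per gene, moderation, the unit of the test, thresholds and leaving out each line.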

Additional observations from a re-analysis of the deposited data

Results flagged for a closer look

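Rows without a gene symbol (28794 of the table) took no part in the comparisons. With the same brightness limit as a floor, OPM2 lay at least 4-fold above every other line in 13 of them and at least 4-fold below in 22. The widest margins were 40.6-fold above and 33.7-fold below, wider than those of any named gene. The transcripts behind these rows are unnamed here.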

How the results depend on the processing

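The test against the spread among lines depended on its unit. It gave 0 genes in each direction with line means under every scaling, filter and left-out line tried, and 1 higher gene with trend and robust moderation. With line as a random block it gave 20 higher and 53 lower, at a correlation of 0.85 between arrays of a line. A fit with no block gave 138 and 271, but it treats the arrays of a line as independent, which they are not. With the line fixed, 2514 and 2901 passed. That error is the spread between arrays and leaves out the spread among lines, so it answers another question. The count against each other line was 48 higher and 121 lower at 2-fold, and 279 higher at an adjusted p under 0.01 (554 lower). Over all rows, a setting chosen after seeing the data, it was 758 higher and 1230 lower. Leaving out a line gave 718 to 1134 higher and 1093 to 1701 lower, since fewer lines then had to be exceeded. Quantile normalization gave 597 and 776, and centring on array medians 346 and 917, so the higher share of the calls was 43.5% and 27.4%, against 35.1%. Of the 138 named genes that were called, 0 changed direction under any setting tried, while 34 of the 158 not called changed the sign of their difference in at least 1. With the control arrays alone, or the knockdown arrays alone, the difference of 81 of these 296 moved by more than the residual SD between arrays. Over the other settings 11 calls were lost, 7 of them with no filter on dim genes. A call lost in several settings, such as that of PHGDH, was counted once for each. With the filter at the 50th percentile only 242 of the 296 were tested, and the genes left out there were not counted as lost. The labels give each group 1 array and no replicate numbers. No paired analysis was possible because the comparison is between lines, and the arrays of a line are already joined by line and treatment in the fit. Dim signals limit the rest: fold bounds depend on the brightness limit, and detection calls were not used.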
